A study of Homo sapiens with 14 samples.

Results

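The enzymes that build ceramide and pass it on to glucosylceramide were followed as 8 genes, SPTLC1, SPTLC2, CERS2, CERS4, CERS5, CERS6, DEGS1 and UGCG, out of 19775 genes on the arrays. Their members were every probe set whose gene symbol in the platform annotation was one of these names, which gave 21 probe sets of 41091 with a single symbol. A further probe set that carries both MRPL51 and SPTLC1 as symbols was left out. HepG2, a human liver tumour cell line, had been transfected with miR-124, a small RNA abundant in neurons that lowers messenger RNAs carrying a matching site, or with a negative control. Cells of both arms were taken after 4, 8, 16, 24, 32, 72 and 120 h and each sample was run on a single array, which made 7 miR-124 and 7 control arrays, 14 in all. The dose, the transfection reagent and the sequence of the negative control are not given in the labels used here.

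Ceramide is the core of the sphingolipids. Serine palmitoyltransferase, whose catalytic subunits include SPTLC1 and SPTLC2, joins serine with a fatty acyl-CoA, and after a reduction the ceramide synthases attach a second fatty acid to the sphingoid base. Each ceramide synthase prefers its own acyl chain lengths. CERS2 uses very long chains and is the main form in liver, CERS4 uses long to very long chains, and CERS5 and CERS6 use mostly palmitoyl-CoA. DEGS1 then places the double bond that turns dihydroceramide into ceramide, and UGCG adds glucose to make glucosylceramide, the start of most glycosphingolipids.

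The values were log2 expression levels made with RMA, which gives each probe set a level after the arrays' distributions are made alike, so a shift in the total messenger RNA per cell cannot be seen, and fewer cells of a type cannot be told apart from less RNA per cell. Each gene was read from its probe set with the highest mean, and all 8 members lay above the median level of 6.19 that a gene had to pass to be tested, as did 13137 genes in all. Of the 21 probe sets 16 lay above it and 5 below. The hepatocyte genes fitted the label: 8 of 8 markers measured, among them ALB, AFP and APOB, had mean levels between 10.9 and 13.9. The defining leukocyte gene PTPRC and the endothelial gene CDH5 lay below the filter at 5.39 and 4.48. Above the filter lay 2 of 4 blood markers, 3 of 4 fibroblast markers and 2 of 3 endothelial markers, of which LYZ was at 12.6 and CD3D averaged 7.82 with miR-124 against 7.14 in the control. The summed level of the 4 blood markers ran from 12.5 to 12.8 with miR-124 and from 12.6 to 13.0 in the control. For the fibroblast markers the sum ran from 9.06 to 9.31 with miR-124 and from 9.06 to 9.18 in the control, and for the endothelial markers from 8.50 to 9.14 and from 8.54 to 8.77. As a sign of RNA quality, the 3′ signal of ACTB exceeded its 5′ signal by 0.351 to 0.561 log2 with miR-124 and by 0.102 to 0.348 in the control, with the larger gap on the miR-124 array of all 7 pairs. For GAPDH the gap was larger on the miR-124 array of 6 of 7 pairs. The 18S rRNA signal averaged 11.05 on the 4 h miR-124 array against 8.70 in its control, and 7.60 to 8.28 on the other miR-124 arrays. The part of these differences in the results was not tested. The labels do not say that arrays came from separate cultures. Since no sample was repeated, the p-values measure no spread between replicates. The window tests used, per gene, the spread of the paired log2 ratio between times within a window, pooled over early, middle and late windows. A window's p-value thus depends on the other windows too, except where a window was fitted on its own arrays. Tests over all times used the spread of the ratio between the 7 times, and the control slope the spread around its line. These spreads may be technical, and they also hold any change of the ratio with time, which single arrays cannot tell apart. For CERS2, the log2 ratios of −2.54 at 72 h and −1.12 at 120 h enter the spread used in every window.

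In the miR-124 arm CERS2 was 3.69-fold lower in the middle window and 3.56-fold lower late. CERS5 rose in both windows by 1.56-fold and 1.55-fold, CERS6 rose late by 1.56-fold and UGCG fell late by 1.40-fold. SPTLC1, SPTLC2, CERS4 and DEGS1 passed no test between the arms. The early window holds 4 and 8 h, the middle window 16, 24 and 32 h and the late window 72 and 120 h, and a gene counts as called at a limma p under 0.05 after Benjamini-Hochberg adjustment over all genes tested.

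The first enzyme of the pathway was close to level. SPTLC1, the subunit shared by serine palmitoyltransferase complexes, ranged from 10.63 to 10.90 with miR-124 and from 10.75 to 10.99 in the control, and its log2 ratio lay between −0.05 and 0.07 up to 32 h. It was −0.15 at 72 h (10.68 with miR-124, 10.83 in the control) and −0.36 at 120 h (10.63 and 10.99). The late change of −0.26 ± 0.08 just missed the threshold (limma adjusted p = 0.0528). It passed with each array centred on its median (−0.25, limma adjusted p = 0.0465) and without the time block (limma adjusted p = 0.0308). Without 72 h the late window holds the 120 h pair alone, and the change was −0.36, with no spread of its own to test. A second probe set, with a mean of 8.30, had a late change of −0.33 ± 0.11 (limma adjusted p = 0.0918 over every probe set). SPTLC2, a catalytic partner of SPTLC1, was between 8.35 and 8.61 with miR-124 and between 8.34 and 8.56 in the control. Its changes of 0.06 ± 0.08 in the middle window (limma adjusted p = 0.783) and −0.05 ± 0.10 late (adjusted p = 0.736) did not pass. None of the 5 SPTLC2 probe sets was called, and they differed in sign. The one with a mean of 7.05 was lower with miR-124 at all 7 times, with −0.27 ± 0.10 late (limma adjusted p = 0.134 over every probe set), and the one with a mean of 7.47 was at −0.25 ± 0.07 in the middle window (adjusted p = 0.128).

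CERS2 has a single probe set among the 21, so no second reading of it could be compared. CERS2 was lower with miR-124 at each of the 7 times. From 4 to 120 h, its successive levels in the miR-124 arm were 10.58, 10.54, 9.41, 9.04, 8.997, 8.65 and 9.94. In the control arm they were 10.79, 10.81, 10.94, 11.04, 11.11, 11.18 and 11.06. The highest miR-124 array lay below the lowest control array, so the arms did not overlap. Of the 21 probe sets this was the single one without overlap, and among all genes tested 0.617% had every miR-124 array below every control array. The log2 ratio was −0.21 and −0.27 in the first 8 h, then −1.54, −2.004 and −2.11 in the pairs of 16, 24 and 32 h, and −2.54 and −1.12 in those of 72 and 120 h. The lowest point, at 72 h, was 5.81-fold below control, and the gap at 120 h was 2.18-fold.

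Relative to the 4 h array of its own arm, the miR-124 level changed by −1.93 at 72 h and by −0.63 at 120 h, whereas the control level changed by 0.39 and 0.27. In the control arm alone CERS2 had a slope of 0.08 ± 0.02 per doubling of time (± SE, 7 arrays), which did not pass the test (limma adjusted p = 0.0564). The limma adjusted p of this slope was 0.0323 without the 120 h array, so that it lies close to the threshold. It was 0.0471 in the fit on means over probe sets. The slope itself is the same there, because CERS2 has a single probe set and just the other genes' values change. Counted from the lowest ratio among the 13137 genes, CERS2 held ranks 1349 and 486 in the first 2 pairs, ranks 18, 16 and 17 in the middle pairs and ranks 48 and 97 in the last 2.

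**Figure D1:**
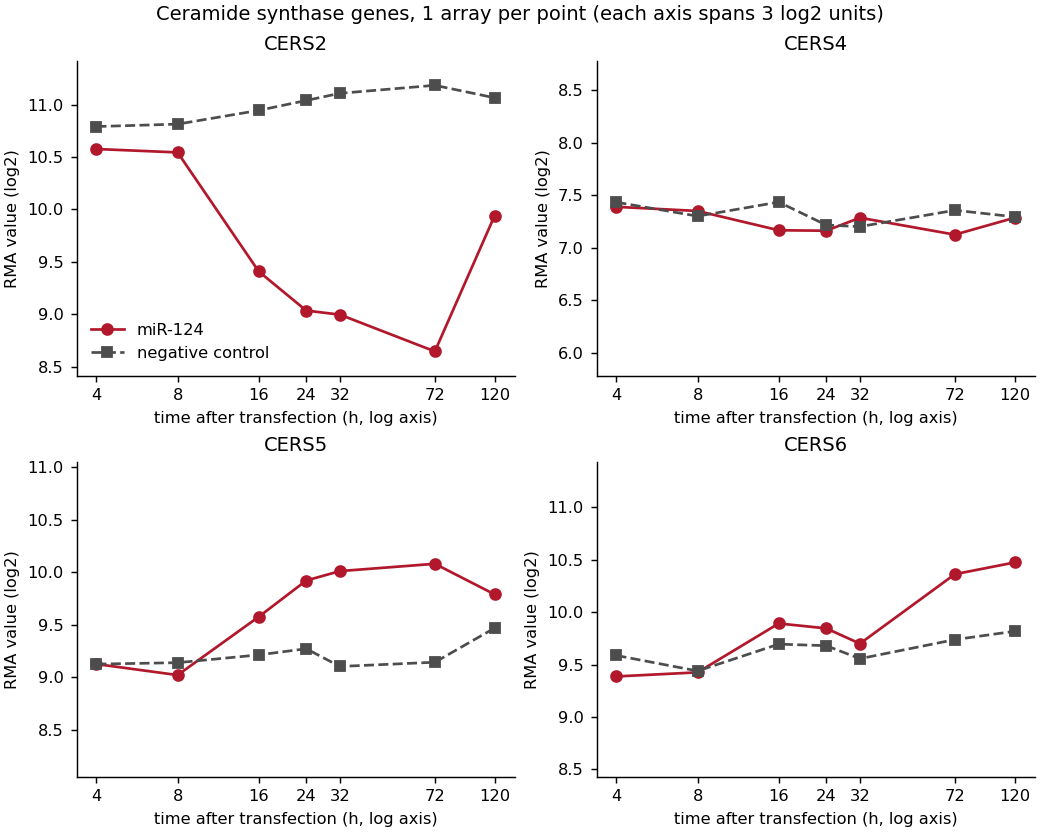
RMA level (log2, vertical) of CERS2, CERS4, CERS5 and CERS6 against time after transfection (h, log axis) for miR-124 (red circles) and the negative control (grey squares), 1 array per point and no error bars because each point has no replicate. CERS2 drops to 8.65 in the miR-124 arm at 72 h against 11.18 in the control, CERS5 and CERS6 sit above the control from 16 h on, and the CERS4 lines cross.

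Tested as windows of neighbouring times, CERS2 fell in the middle window (16, 24 and 32 h) and in the late window (72 and 120 h). The change was −1.88 ± 0.23 in the middle window (log2, ± SE, n = 3 pairs, limma adjusted p = 0.00583) and −1.83 ± 0.28 late (n = 2 pairs, limma adjusted p = 0.00286). The late minus middle difference of 0.05 ± 0.37 did not pass (limma adjusted p = 0.957). The 2 late times differ from each other, with −1.12 from 120 h alone and −2.54 from 72 h alone. In the early window (4 and 8 h) the change was −0.24 ± 0.28, and limma called 0 of the 8 members and 0 of all 13137 genes, with 163 genes at an unadjusted p under 0.05. The middle call was lost without 24 h (−1.82, limma adjusted p = 0.0909) and without 32 h (−1.77, adjusted p = 0.0771), settings in which 0 and 12 genes of the whole table were called. The adjusted p of the middle value ran from 0.000116 to 0.0909 over all alternatives tried. Over the 7 times together CERS2 averaged −1.40 ± 0.28, which missed the threshold (limma adjusted p = 0.0552) and passed it without the time block (adjusted p = 0.0101), without 4 h (−1.60, adjusted p = 0.0217) and without 8 h (−1.59, adjusted p = 0.0372). None of the 8 members was called over all times, where 0.913% of genes were.

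In each of the 3 comparisons with a paralog, CERS2 had the lower ratio at all 7 times. These are not the whole family. CERS1 had no probe set with a single symbol and CERS3 lay below the filter, at 5.92, so neither was compared. The mean log2 ratio was −1.40 for CERS2 against −0.07 for CERS4, a difference of −1.33 ± 0.87 (SD, n = 7 pairs). Against CERS5, whose mean ratio was 0.44, the difference was −1.84 ± 1.32, and against CERS6, at 0.22, it was −1.62 ± 1.12. The exact two-sided sign-flip permutation test over the 7 pairs gave p = 0.015625 for each, which is the smallest it can give, and adjusted over the 3 comparisons the value was also 0.015625. The difference was largest at 72 h, where CERS2 minus CERS5 was −3.48 and CERS2 minus CERS6 was −3.16, and was smallest at 4 or 8 h. With all 7 differences below 0 the test gives its smallest value whatever their size. CERS2 was set against its paralogs with its decrease in these arrays already known, so the test is no independent evidence for a difference.

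CERS4 was not called in any window. Its level ran from 7.12 to 7.39 in the miR-124 arm and from 7.20 to 7.44 in the control, with overlapping ranges. It was lower with miR-124 at 5 of 7 times, and its log2 ratio stayed between −0.27 at 16 h and 0.08 at 32 h. The window changes were −0.08 ± 0.09 in the middle (limma adjusted p = 0.707) and −0.12 ± 0.11 late (limma adjusted p = 0.459).

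CERS5, a palmitoyl-preferring synthase, went the other way and rose. From 4 to 120 h its levels with miR-124 were 9.12, 9.02, 9.58, 9.92, 10.01, 10.08 and 9.79. In the control arm they were 9.12, 9.14, 9.21, 9.27, 9.10, 9.14 and 9.47. The ranges of the arms overlap over the whole course, with each pair from 16 h on higher with miR-124. Its log2 ratios in the 5 pairs from 16 h on were 0.36, 0.65, 0.91, 0.94 and 0.32. The change was 0.64 ± 0.14 in the middle window (limma adjusted p = 0.0305) and 0.63 ± 0.17 late (limma adjusted p = 0.0247), or 1.56-fold and 1.55-fold. The middle call was lost when 4, 8, 24 or 32 h was left out, with limma adjusted p = 0.0665 without 4 h or 8 h, 0.221 without 24 h and 0.254 without 32 h. The late call was lost without 24 h (limma adjusted p = 0.0514). Without 72 h the late change was 0.32, from the 120 h pair alone. A mean over both CERS5 probe sets gave 0.37 ± 0.10 in the middle window (adjusted p = 0.0706). The second probe set had a mean of 4.77, below the filter, and its ratio was above 0 at each of the 7 times. It rose late by 0.50 ± 0.10 (limma adjusted p = 0.0111 over every probe set) and was at 0.11 ± 0.08 in the middle window (adjusted p = 0.721).

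CERS6, the closest relative of CERS5 in acyl preference, rose in the late window. From 4 to 120 h its levels with miR-124 were 9.39, 9.43, 9.89, 9.85, 9.70, 10.36 and 10.47, against 9.59, 9.44, 9.70, 9.68, 9.56, 9.74 and 9.82 in the control. The arms overlap over the whole course. The miR-124 arrays of 16, 24, 72 and 120 h lie above every control array, that of 32 h lies within the control range, and those of 4 and 8 h lie below every control array. The change was 0.17 ± 0.07 in the middle window (limma adjusted p = 0.203) and 0.64 ± 0.08 late (limma adjusted p = 0.00138), a 1.56-fold increase. The late minus middle difference of 0.47 ± 0.11 passed narrowly (limma adjusted p = 0.0494), and CERS6 was the single member called in it, where 4.75% of all genes were. It was not called with any one of 4, 8, 16, 24 or 32 h left out (limma adjusted p = 0.0799 to 0.196), without the time block (0.0528), over every probe set (0.0606) or with the mean of probe sets (0.33, 0.192). Of the other CERS6 probe sets, the one with a mean of 8.85 rose late by 0.58 ± 0.09 (limma adjusted p = 0.00285 over every probe set). The one with a mean of 7.69 was at 0.23 ± 0.11 (adjusted p = 0.245), and the one below the filter, with a mean of 5.08, at 0.49 ± 0.17 (adjusted p = 0.0992).

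The stretches in front of CERS5 and CERS6, the 2 members that rose, are shown. That of CERS2 was sought too, but the promoter sequences used here held no entry for it. Each is the 250 bases before the annotated start, from RefSeq on GRCh38.p14, for CERS5 at chr12:50167370-50167619 on the minus strand and for CERS6 at chr2:168456022-168456271 on the plus strand. Capitals mark GC boxes (GGGCGG, or CCGCCC on the other strand) and CCAAT boxes (CCAAT or ATTGG), and neither held the E-box CACGTG, which reads the same on both strands.
CERS5: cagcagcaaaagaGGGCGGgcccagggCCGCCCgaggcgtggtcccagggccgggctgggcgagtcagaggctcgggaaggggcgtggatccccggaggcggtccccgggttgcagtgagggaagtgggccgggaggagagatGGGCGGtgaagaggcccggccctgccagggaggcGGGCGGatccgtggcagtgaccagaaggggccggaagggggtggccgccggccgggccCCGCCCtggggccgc
CERS6: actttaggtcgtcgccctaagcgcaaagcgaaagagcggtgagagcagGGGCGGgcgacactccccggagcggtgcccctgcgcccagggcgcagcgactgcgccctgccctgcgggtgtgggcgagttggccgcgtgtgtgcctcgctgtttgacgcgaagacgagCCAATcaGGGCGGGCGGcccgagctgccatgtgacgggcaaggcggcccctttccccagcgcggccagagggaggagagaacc
CERS5 held 5 GC boxes and no CCAAT box, and CERS6 held 3 GC boxes, 2 of which overlap, and 1 CCAAT box. Among 35116 promoter windows of the same length, 42.6% held a GC box, 32% a CCAAT box and 6.34% the E-box. A match is a description of the letters and not a binding site.

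**Figure D2:**
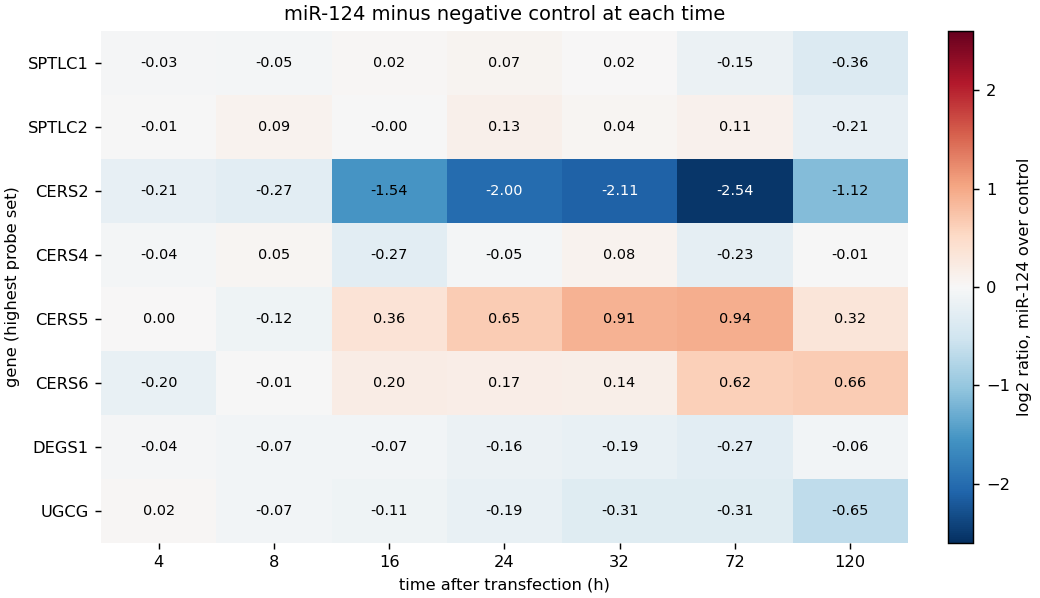
Log2 ratio of miR-124 over the negative control (colour and printed value) for the 8 genes (rows, highest probe set of each) at each time after transfection (columns, h), with 1 pair of arrays per cell and no error. CERS2 is at −1.12 or below from 16 h on, CERS5 peaks at 0.94 at 72 h, and CERS6 and UGCG have their largest gaps at 120 h.

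DEGS1, the desaturase, gave different pictures through its 2 probe sets. The one with the higher mean, 9.39, read 9.66, 9.66, 9.37, 9.18, 9.26, 9.07 and 9.11 with miR-124 from 4 to 120 h, against 9.70, 9.73, 9.44, 9.34, 9.45, 9.34 and 9.17 in the control. Both arms declined together. In the control arm its slope was −0.11 ± 0.02 per doubling of time (limma adjusted p = 0.0266), the single one of the 8 members called there, where 8.18% of all genes were called. That call was lost without the 4, 8 or 120 h array (limma adjusted p = 0.0742, 0.0685 and 0.0700). The ratio was below 0 at all 7 times but small, with −0.27 at 72 h as its lowest value, and the window changes of −0.14 ± 0.07 and −0.17 ± 0.09 did not pass (limma adjusted p = 0.333 and 0.198).

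The other probe set, with a mean of 8.33, read 8.94, 8.69, 8.20, 7.69, 7.79, 7.21 and 8.15 with miR-124, against 8.76, 8.84, 8.53, 8.49, 8.72, 8.40 and 8.23 in the control. The ranges of the arms overlap over the whole course, with each pair from 8 h on lower with miR-124. Its log2 ratios in time order were 0.17, −0.15, −0.34, −0.80, −0.93, −1.19 and −0.08. It is described because the 2 DEGS1 probe sets differ, which was seen in the values. The changes of −0.69 ± 0.19 in the middle window (limma adjusted p = 0.112 over every probe set) and −0.63 ± 0.23 late (adjusted p = 0.117) did not pass. The late value holds 2 very different times. Which part of the transcript each probe set reads was not analysed here, so the gap between them is given as measured.

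**Figure D3:**
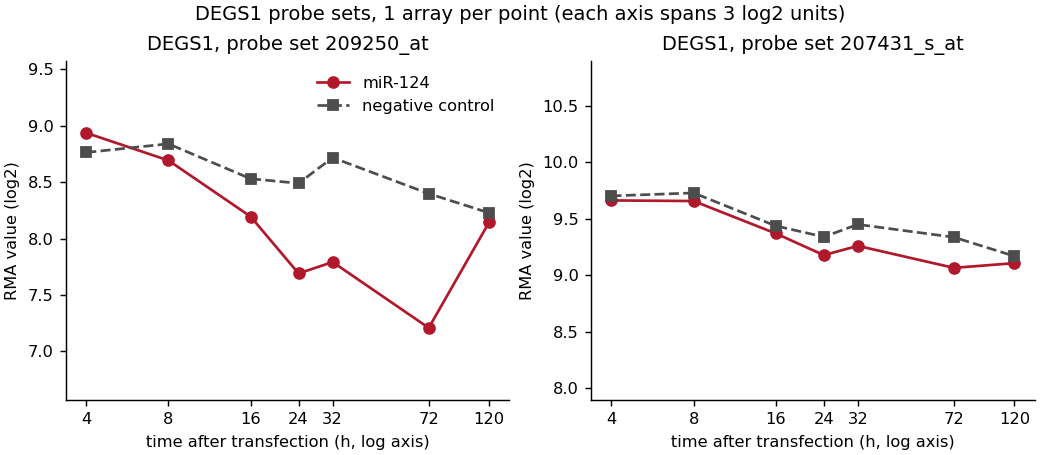
RMA level (log2, vertical) of the 2 DEGS1 probe sets against time after transfection (h, log axis) for miR-124 (red circles) and the negative control (grey squares), 1 array per point. In the probe set with a mean of 8.33 (left) the miR-124 line drops to 7.21 at 72 h and is at 8.15 at 120 h, while in the one with a mean of 9.39 (right) both lines decline side by side.

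UGCG, the glucosylceramide synthase, fell in the late window. From 4 to 120 h its levels with miR-124 were 8.70, 8.70, 8.36, 8.27, 8.47, 8.39 and 8.33, against 8.67, 8.77, 8.47, 8.46, 8.78, 8.70 and 8.98 in the control. The ranges of the arms overlap, with each pair from 8 h on lower with miR-124. From 16 h on its log2 ratios were −0.11, −0.19, −0.31, −0.31 and −0.65, the last a 1.57-fold gap. The change was −0.20 ± 0.09 in the middle window (limma adjusted p = 0.228) and −0.48 ± 0.10 late (limma adjusted p = 0.0115). Without 120 h the late change was −0.31, from the 72 h pair alone. The second probe set, with a mean of 7.56, was lower at all 7 times and also fell late (−0.31 ± 0.09, limma adjusted p = 0.0456 over every probe set). The third, with a mean of 5.88 below the filter, was lower at 6 of 7 times (late −0.37 ± 0.12, adjusted p = 0.0831).

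**Figure D4:**
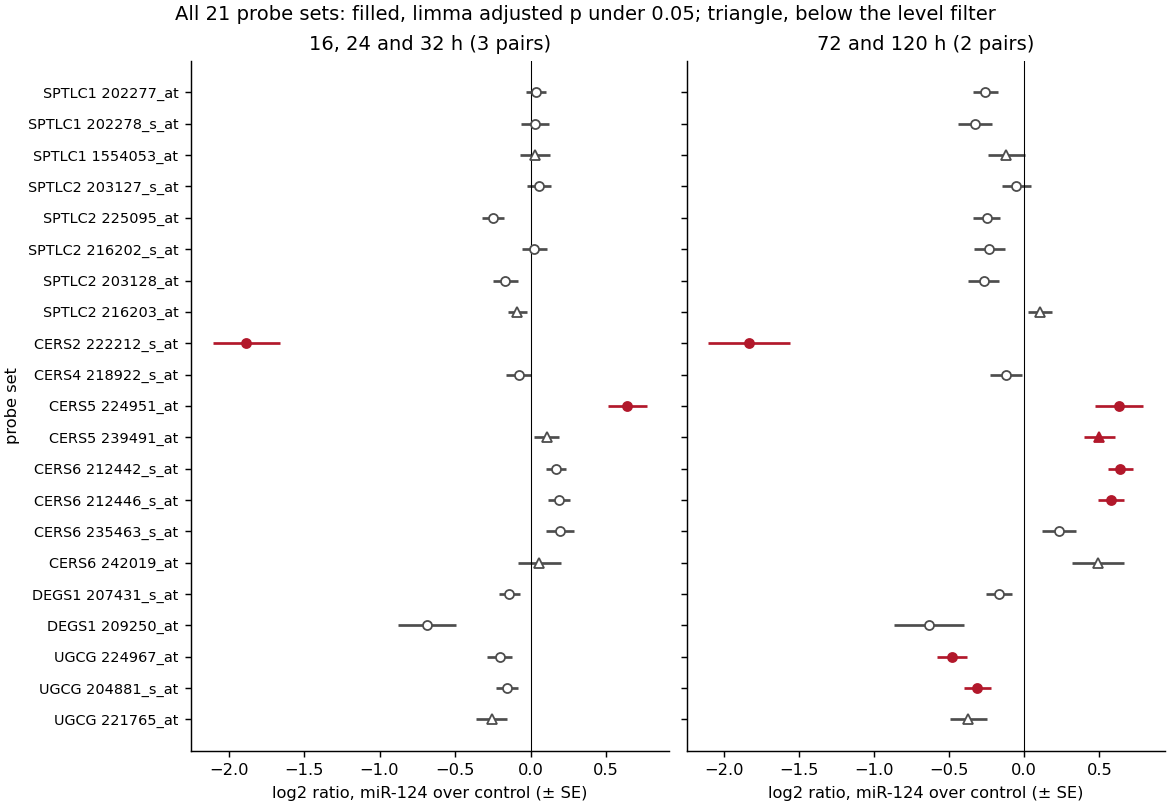
Log2 ratio of miR-124 over control (horizontal, ± SE from the limma fit over every probe set) for the 21 probe sets (rows) in the middle window (left, 3 pairs) and the late window (right, 2 pairs); filled symbols have an adjusted p under 0.05 and triangles lie below the level filter. CERS2 stands alone at −1.88 and −1.83, the probe sets of CERS5 and CERS6 lie right of 0, and the 2 DEGS1 probe sets lie apart.

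Counted over the 8 genes, 1 was lower and 1 higher in the middle window, where 7.83% of all genes were called, 4.36% lower and 3.46% higher. Late, 2 were lower (CERS2 and UGCG) and 2 higher (CERS5 and CERS6), where 12.6% were lower and 16.4% higher. The 4 late calls are to be read against 29.1% of all genes called in that window. Over the 21 probe sets, 1 was lower and 1 higher in the middle window, where 1.92% and 1.29% of all probe sets were. Late, 3 were lower and 4 higher, where 6.01% and 8.86% were. No level filter was applied to all probe sets, whereas 16 of the 21 lay above it, so these shares come from probe sets of unlike level. The members' median change was −0.02 in the middle window and −0.14 late, against 0.03 and −0.01 over all genes tested. All 4 late calls were lost when the late window was fitted on its own 4 arrays, with limma adjusted p = 0.0553 for CERS2, 0.0771 for CERS6, 0.141 for CERS5 and 0.169 for UGCG.

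The genes whose 7 ratios lay closest to those of CERS2 were CMTM6, LITAF, DEPDC1B, TMEM263 and CDK2, with root mean square differences of 0.13, 0.19, 0.22, 0.25 and 0.26 log2 over 7 times. CMTM6, a membrane protein, was at −1.25 at 16 h, −2.66 at 72 h and −1.07 at 120 h, close to the CERS2 values of −1.54, −2.54 and −1.12. CDK2, a cyclin-dependent kinase of the cell cycle, was at −1.17, −2.24 and −0.97 at those times. All 5 share with CERS2 the low point at 72 h and the smaller gap at 120 h. They were found by likeness of these ratios, which all come from the same 14 arrays.

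Around the 8 enzymes, 2 partners of the early steps were called, both in the late window. Of 10 listed, 8 had a probe set with a single symbol, which SPTLC3 and CERS1 lacked. SPTSSB, CERS3 and DEGS2 lay below the filter. Of 5 tested, none was called in the middle window, where 7.83% of all genes were, and 2 were higher late, where 16.4% of all genes were. These were ORMDL2 at 0.61 ± 0.15 (limma adjusted p = 0.0183) and ORMDL3 at 0.51 ± 0.15 (adjusted p = 0.0336), both of which restrain serine palmitoyltransferase. The list's median was 0.13 in the middle window and 0.29 late, against 0.03 and −0.01 over all genes. ORMDL3 was not called late without 4, 8 or 24 h. At 120 h alone, without 72 h, the changes were 0.30 for ORMDL2 and 0.21 for ORMDL3. Both were called in the middle window when 72 or 120 h was left out.

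Enzymes that lengthen fatty acyl-CoA, the substrate of the ceramide synthases, were mostly lower where they were called. Of 12 listed, 10 had a probe set with a single symbol, which ELOVL1 and HACD1 lacked. ELOVL3 and ELOVL4 lay below the filter, at 5.31 and 3.78, so the genes tested do not cover the whole list. Of 8 tested, 2 were lower and 1 higher in the middle window (median −0.06), and 3 were lower late (median −0.29). Of all genes, 4.36% were lower and 3.46% higher in the middle window (median 0.03), and 12.6% were lower and 16.4% higher late (median −0.01). ELOVL5, an elongase of polyunsaturated fatty acids, fell by 0.94 ± 0.17 in the middle window (limma adjusted p = 0.0175) and by 1.27 ± 0.20 late (adjusted p = 0.0033). TECR, the reductase of the last elongation step, was at −0.55 ± 0.09 late and HSD17B12, a reductase of an earlier step, at −0.39 ± 0.11 late. ELOVL7, another elongase, was at −0.31 ± 0.07 in the middle window. ELOVL6, which lengthens palmitoyl-CoA, rose in the middle window by 0.51 ± 0.12 (adjusted p = 0.0483) and was at −0.19 ± 0.15 late. HSD17B12 was not called late without 24 h, and its log2 ratio was −0.41 at 72 h and −0.38 at 120 h. ELOVL2, called in neither window, was at −0.09 at 72 h and at 0.45 at 120 h.

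Genes that move or use ceramide changed in both directions. Of 10 tested, 2 were lower and 1 higher in the middle window (median −0.11), and 2 were lower and 3 higher late (median 0.04). The shares of all genes were 4.36% lower and 3.46% higher in the middle window, and 12.6% lower and 16.4% higher late. GLTP, a glycolipid transfer protein, was at 8.50, 8.25 and 8.27 with miR-124 at 16, 24 and 32 h, against 9.72, 9.81 and 9.91 in the control. It fell by 1.47 ± 0.16 in the middle window (limma adjusted p = 0.00529) and by 1.36 ± 0.20 late. CERT1, which carries ceramide from the endoplasmic reticulum to the Golgi, fell by 0.52 ± 0.08 in the middle window (adjusted p = 0.013) and by 0.46 ± 0.10 late. SAMD8, which makes the sphingomyelin analogue ceramide phosphoethanolamine, rose by 0.66 ± 0.07 and 0.86 ± 0.09 in the same windows (adjusted p = 0.00533 and 0.000608). B4GALT5, a lactosylceramide synthase, and SGMS1, a sphingomyelin synthase, rose late by 0.54 ± 0.09 and 0.45 ± 0.14. SGMS1 was not called late without 24 h, and its log2 ratio was 0.35 at 72 h and 0.55 at 120 h.

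Genes of ceramide release and breakdown were called in both directions in the late window. Leaving out ACER2, 15 were tested, of which 2 were lower and none higher in the middle window (median 0.03), where 4.36% of all genes were lower and 3.46% higher. Late, 3 of the 15 were lower and 4 higher (median 0.08), where 12.6% and 16.4% of all genes were. ACER2, an alkaline ceramidase of the Golgi, read 6.07, 6.79, 7.58, 8.75 and 7.76 with miR-124 from 16 to 120 h, against 5.53, 5.39, 5.63, 5.74 and 5.71 in the control. Each pair from 16 h on was higher with miR-124, and the change was 1.30 ± 0.26 in the middle window (limma adjusted p = 0.0258) and 2.53 ± 0.32 late (adjusted p = 0.00122). Its control arrays lay below the level filter of 6.19, so these sizes depend on the background level, and its mean of 6.25 passed the filter through the miR-124 arrays, so it is left out of the list's counts. SPHK1, a sphingosine kinase, fell by 0.90 ± 0.11 and by 1.04 ± 0.13, and SGPL1, the lyase that ends the pathway, by 0.47 ± 0.10 and by 0.43 ± 0.12. The late calls included HEXA at 1.14 ± 0.15, GM2A at 0.59 ± 0.11, SMPD1 at 0.50 ± 0.09 and PSAP at 0.46 ± 0.09, genes of lysosomal sphingolipid breakdown, and GLA at −0.84 ± 0.16, a lysosomal galactosidase. SGPL1 was not called late without 16, 24 or 32 h, and its log2 ratio was −0.66 at 72 h and −0.20 at 120 h.

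None of the middle calls of these 4 lists held without 24 h, when limma called 0 genes of the table (1534 at an unadjusted p under 0.05), or without 32 h. ELOVL6, ELOVL7 and SGPL1 were also not called there without 4, 8 or 16 h, and ACER2 was not without 4 or 8 h.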

How the data were processed

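The members and gene lists were chosen with earlier results of these data known. The authors deposited a log2 expression level for each of 54675 probe sets, 62 of them controls. RMA is named in the submitters' processing notes, while its version is not given in the sources used here, and the log2 scale follows from the range of the levels. Symbols came from the platform annotation; identifiers of 41043 of 41091 probe sets with a single symbol matched the RefSeq gene table. Arrays have no depth, and their number limits the precision.

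Per gene, the probe set with the highest mean was tested with limma 3.58.1 in R 4.3.3 (lmFit and eBayes, two-sided, Benjamini-Hochberg over 13137 genes, adjusted p under 0.05), with time point as a block plus transfection, overall (6 residual degrees of freedom) or by window (4). The window fit was tested on simulated data. Arrays were paired by the time in their labels, and deviations correlated at 0.205 to 0.48 within pairs. Probe sets were also tested one by one over 54613. Named besides the members were the 5 genes nearest to CERS2 in their ratios and listed sphingolipid genes called in the middle or late window. Some listed genes that were not tested are named too, as is ELOVL2, which was called in neither window. Figures used matplotlib 3.10.9 in Python 3.11.15. Alternatives were the mean of probe sets, every probe set, no level filter, median centring, no time block, single windows and each time left out.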

Additional observations from a re-analysis of the deposited data

Results flagged for a closer look

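The CERS6 effect differed between windows by 0.47 on the log2 scale (late minus middle, limma adjusted p = 0.0494), which drew attention because the difference itself passed its test. Its ratio was between 0.14 and 0.20 at 16 to 32 h and 0.62 and 0.66 at 72 and 120 h. None of the 16 sets of 7 arrays (8 genes in each arm) held an array far from the others by Dixon's test. Each set spans 7 different times, and a change over time widens the range that the test divides by. The outcome therefore says little about single arrays.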

How the results depend on the processing

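Among the alternatives tried, CERS2 kept its direction in both windows, and CERS2 minus each paralog stayed below 0. No time left out could have turned these signs, since all 7 CERS2 ratios and all 7 differences from each paralog lay below 0. Settings that change just the spread or the genes tested left the CERS2 middle value at −1.88. Leaving out single times gave CERS2 middle changes from −2.06 to −1.77, and on its own arrays the late change was −1.83 with its call lost. Members called higher in the middle window numbered 0 to 1 with a time left out and 0 with the mean of probe sets, and members called lower 0 to 1. Late, members called higher numbered 1 to 2 and lower 1 to 3 with a time left out, and 0 each way on the window's own arrays. Over all genes, the middle count of 1028 was 1749 with every probe set, 2164 on its own arrays and 0 to 2198 with a time left out. Late, 3821 genes were called, against 8119 features with every probe set and 469 genes on the window's own arrays. Calls late split as 2161 higher and 1660 lower. Signs turned for SPTLC2 in the middle window with the mean of probe sets (−0.0839), for SPTLC2 late with times left out (−0.21 to 0.11) and for CERS4 in the middle window (−0.1615 to 0.0152), none of them called. With no replicate block, pairs being ignored, SPTLC1 late (−0.26) and the overall effects of CERS2 (−1.40) and CERS5 (0.44) gained a call and the CERS6 difference (0.47) lost it; no other call of the members given above changed.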
